A study of Mus musculus with 24 samples.

Results

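Immunoglobulin transcripts were followed in subcutaneous inguinal fat of 24 female mice, 1 RNA-seq library per mouse. The members were all genes of the count table whose symbol begins with Ighv, Ighg, Ighm, Igha, Ighd, Ighe, Igkv, Igkc, Iglv or Iglc, leaving out Ighmbp2, an unrelated helicase gene. The rule found 98 of the 37991 identifiers in the table, and other immunoglobulin segments of the mouse annotation were not analysed here. They comprised 8 constant genes (Ighm, Ighg1, Ighg2b, Ighg2c, Ighg3, Ighe, Igkc and Iglc2), 27 heavy chain V segments, 59 kappa V segments, 3 lambda V segments and Ighd1-1. Counts were too low to test in 54 of the 98. The 44 members tested were the 8 constant genes, 6 Ighv, 28 Igkv and 2 Iglv segments, and 11 members, Ighd1-1 among them, had no count in any library.

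The mice were NZO/HiLtJ, an inbred strain that becomes obese, the wild-derived strains CAST/EiJ and WSB/EiJ, or C57BL/6J, the strain of the mouse reference genome. Within each of the 4 strains, 3 mice were fed chow rich in fat and sucrose (45% of calories as fat, called high-fat) and 3 were fed standard chow (17% of calories as fat), each from 4 weeks of age until 26 weeks. These 8 groups carried no engineered allele and no agent beyond the diets, per the labels. Libraries are named by strain, diet and a replicate number that follows accession order and pairs nothing.

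An antibody is built from heavy and light chains. A developing B cell joins a V segment to shorter segments and then to a constant gene, and each B cell and its descendants keep 1 such heavy and light chain pair. Ighm encodes the heavy chain of IgM, which naive B cells carry on their surface, while class switching replaces it with the IgG constant genes Ighg1, Ighg2b, Ighg2c and Ighg3 or the IgE gene Ighe. Igkc and Iglc2 encode the constant parts of the kappa and lambda light chains. Plasma cells, the antibody-secreting descendants of B cells, hold far more of these transcripts than resting B cells do. The segments are germline genes that differ in sequence between strains, and reads from a strain's own allele can be counted less completely against a C57BL/6J reference. The part of this in the strain differences was not tested. It does not bear on comparisons of mice within a strain, which share their germline alleles.

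Totals ran from 47651641 to 84009032 counts per library, and immunoglobulin genes took 0.000974% to 0.0496% of them. The 6 heavy chain constant genes held 80.2% of all immunoglobulin counts, Igkc 11.7%, kappa V segments 5.98%, heavy V segments 0.862%, Iglc2 0.742% and lambda V segments 0.447%; these shares are of counts, which are not divided by gene length. Levels are in normalised CPM (CPM over the scaled library total). In 1 library, CAST/EiJ high-fat replicate 1, the adipocyte gene Adipoq stood at 4.095 normalised CPM, against 599 or more in the other 23, and the epithelial gene Epcam at 150.9. Epcam reached 5 CPM over the unscaled total in 6 libraries, which were this one, all 3 WSB/EiJ high-fat libraries, C57BL/6J high-fat replicate 1 and WSB/EiJ standard replicate 3. Results that rest on CAST/EiJ high-fat replicate 1 are given with and without it. CAST/EiJ standard replicate 1 and CAST/EiJ high-fat replicate 3, stood apart from the other libraries in Ighg3 and Igkv8-16, as described with those genes. In bulk tissue, fewer B cells or plasma cells and less immunoglobulin RNA per cell cannot be told apart.

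The IgM heavy chain gene had the smallest adjusted p of the 8 constant genes in the test of any difference between strains (5.27e-09). Ighm averaged 251 ± 76.6 normalised CPM in NZO/HiLtJ, 8.11 ± 3.19 in CAST/EiJ, 15.3 ± 8.0 in WSB/EiJ and 133 ± 66.6 in C57BL/6J (SD, n = 6 each). In CAST/EiJ it had 4.97, 5.60 and 13.2 in the high-fat mice and 6.27, 10.5 and 8.17 in the standard mice. In WSB/EiJ it had 10.7, 10.4 and 27.6 in the high-fat mice and 9.58, 10.02 and 23.2 in the standard mice. All 12 of these libraries lay below every C57BL/6J library (4 of 44 members did not overlap between CAST/EiJ and C57BL/6J, and 7 between WSB/EiJ and C57BL/6J, beside 18% and 13.1% of all genes). In C57BL/6J, Ighm had 106, 141 and 96.0 on high-fat diet and 93.6, 99.5 and 265 on standard diet. The log2 fold change against C57BL/6J was -4.03 ± 0.39 in CAST/EiJ and -3.12 ± 0.37 in WSB/EiJ (SE; adjusted p = 1.56e-07 and 6.38e-06, edgeR quasi-likelihood test, Benjamini-Hochberg adjusted over all genes that passed the filter). Both calls held with each of the 24 libraries left out in turn.

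Ighm was highest in NZO/HiLtJ, with 253, 187 and 237 normalised CPM in high-fat mice and 400, 205 and 222 in standard mice. These libraries overlapped those of C57BL/6J, whose highest reached 265, and the difference missed the threshold at a log2 fold change of 0.92 ± 0.35 (adjusted p = 0.0632), although the second count test, DESeq2, called it. Against CAST/EiJ the log2 fold change was 4.94 ± 0.41 (adjusted p = 1.29e-08) and against WSB/EiJ 4.03 ± 0.39 (adjusted p = 2.31e-07). CAST/EiJ and WSB/EiJ overlapped and the log2 fold change between them was -0.91 ± 0.35 (adjusted p = 0.0501); DESeq2 called this difference too, as did edgeR without the 2 CAST/EiJ libraries with high Ighg3. The order of levels was thus NZO/HiLtJ, C57BL/6J, WSB/EiJ and CAST/EiJ, with the libraries of the upper pair and those of the lower pair overlapping.

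**Figure D1:**
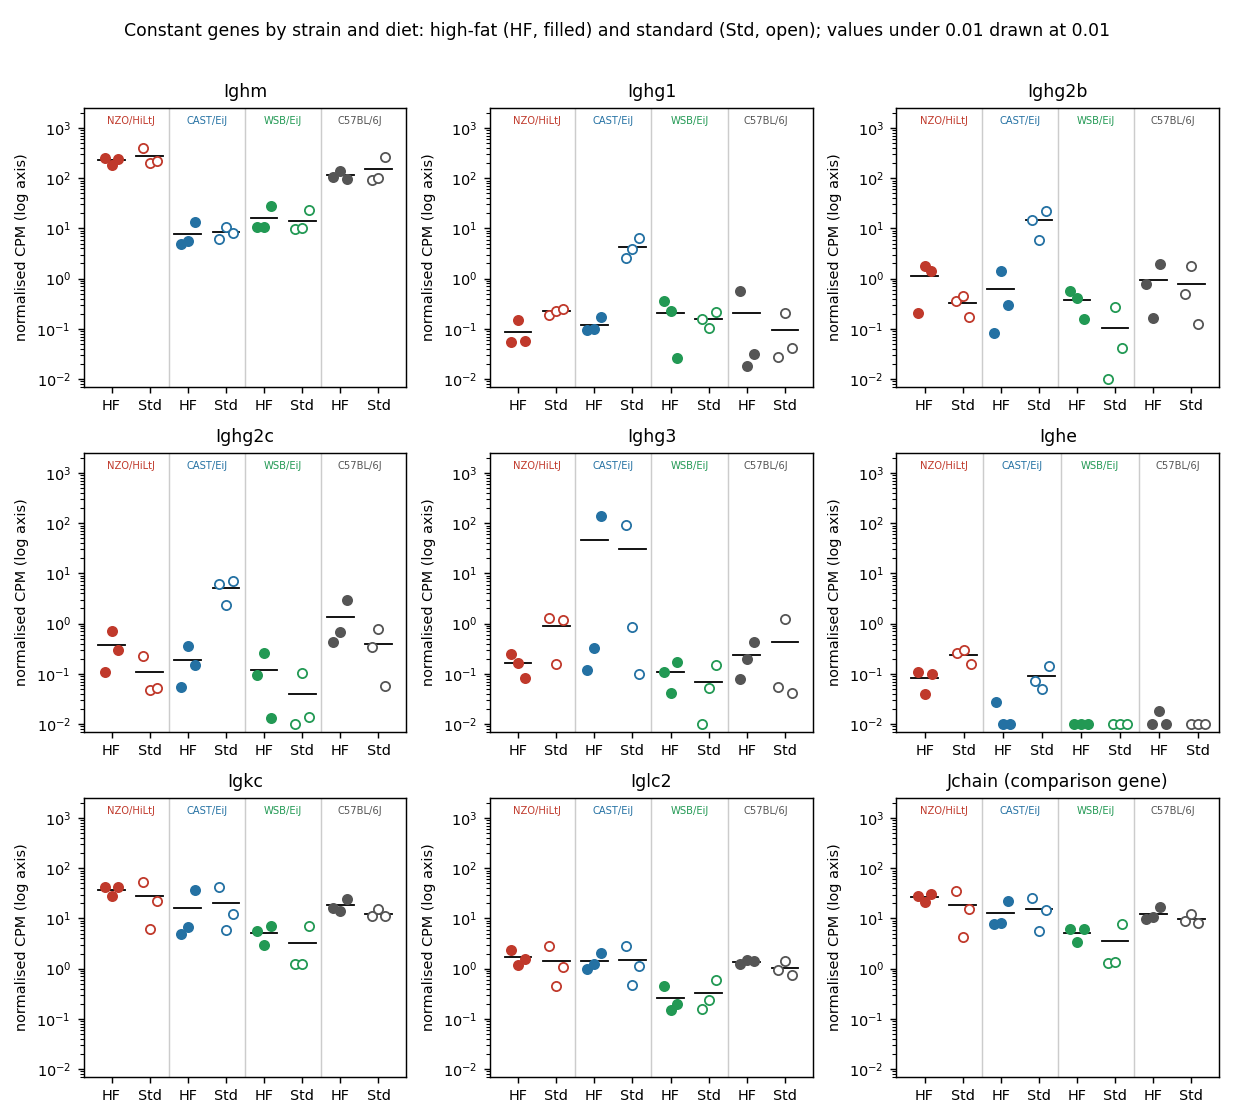
Normalised CPM (log axis) of the 8 constant genes and of Jchain in each library, by strain and diet; filled points are high-fat, open points standard, bars are group means, and values under 0.01 are drawn at 0.01. Ighm sits at 4.97 to 27.6 in CAST/EiJ and WSB/EiJ and at 93.6 to 400 in NZO/HiLtJ and C57BL/6J, while Ighg1, Ighg2b and Ighg2c separate the 2 diets in CAST/EiJ.

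The kappa constant gene did not follow Ighm closely in CAST/EiJ. Igkc averaged 32.5 ± 17.3 normalised CPM in NZO/HiLtJ, 18.3 ± 17.0 in CAST/EiJ, 4.2 ± 2.76 in WSB/EiJ and 15.4 ± 5.08 in C57BL/6J (SD, n = 6 each). The CAST/EiJ level spanned the C57BL/6J range, with 4.89, 6.81 and 37.1 on high-fat diet and 42.8, 6.02 and 12.5 on standard diet. Its log2 fold change against C57BL/6J was 0.27 ± 0.60 (adjusted p = 0.765), beside -4.03 for Ighm in the same libraries. The values of 37.1 and 42.8 came from the 2 CAST/EiJ libraries with high Ighg3. Of the rest, 4.89, 6.81 and 6.02 lay below every C57BL/6J library and 12.5 did not. This comparison without those 2 libraries is not given here. In WSB/EiJ, where Igkc ran from 1.22 to 7.13, every library lay below the lowest C57BL/6J library at 11.03, with a log2 fold change of -1.89 ± 0.62 (adjusted p = 0.0293). That call was lost in 5 of the 24 fits that each left out a library (C57BL/6J standard replicate 2, C57BL/6J high-fat replicate 3, WSB/EiJ standard replicates 1 and 2, and WSB/EiJ high-fat replicate 2), where the log2 fold change stayed between -1.8 and -1.7. Igkc was higher in NZO/HiLtJ than in WSB/EiJ by 2.97 ± 0.65 on the log2 scale (adjusted p = 0.00122). It was also higher in CAST/EiJ than in WSB/EiJ, by 2.15 ± 0.63 (adjusted p = 0.012), but not without CAST/EiJ high-fat replicate 3 (1.41, adjusted p = 0.0648) or without CAST/EiJ standard replicate 1 (1.58, adjusted p = 0.0532).

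Counts of Ighm per count of Igkc therefore differed between strains. The ratio ran from 5.54 to 33.0 in NZO/HiLtJ, from 0.146 to 1.75 in CAST/EiJ, from 1.88 to 8.2 in WSB/EiJ and from 3.85 to 23.4 in C57BL/6J. All 6 CAST/EiJ libraries lay below every library of the other strains. Ighm made up 3.1% to 38.6% of the immunoglobulin counts of a CAST/EiJ library, against 70.8% to 95.2% in NZO/HiLtJ, 50.5% to 81.0% in WSB/EiJ and 68.4% to 94.2% in C57BL/6J. Iglc2, the lambda constant gene, averaged 1.57 ± 0.863 normalised CPM in NZO/HiLtJ, 1.44 ± 0.828 in CAST/EiJ, 0.296 ± 0.18 in WSB/EiJ and 1.21 ± 0.306 in C57BL/6J (SD, n = 6 each). All WSB/EiJ libraries, at 0.148 to 0.591, were below the lowest C57BL/6J library at 0.732, a log2 fold change of -2.02 ± 0.48 (adjusted p = 0.00428), while NZO/HiLtJ and CAST/EiJ overlapped C57BL/6J.

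**Figure D2:**
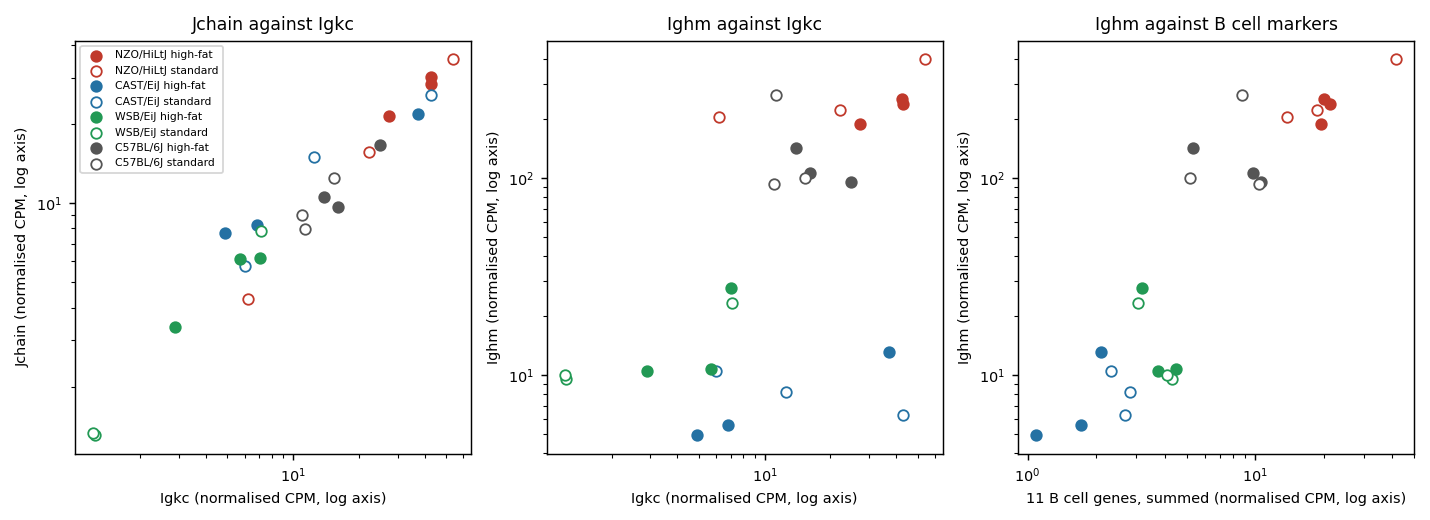
Jchain against Igkc, Ighm against Igkc, and Ighm against the summed level of 11 B cell genes in each library (normalised CPM, log axes), coloured by strain, filled for high-fat and open for standard diet. Jchain per Igkc lies between 0.59 and 1.58 in all libraries, whereas the CAST/EiJ libraries lie below the others in Ighm at the same Igkc.

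Jchain, which encodes the peptide that joins IgM and IgA units and marks plasma cells, is not a member and is set beside Igkc. Jchain per Igkc in normalised CPM ran from 0.651 to 0.78 in NZO/HiLtJ, from 0.876 to 1.16 in WSB/EiJ and from 0.599 to 0.815 in C57BL/6J. In CAST/EiJ it was 0.59 and 0.6 in the 2 libraries with high Ighg3 and 0.953 to 1.58 in the other 4. Jchain itself was higher in NZO/HiLtJ than in WSB/EiJ (log2 fold change 2.37, adjusted p = 0.00138) and in CAST/EiJ than in WSB/EiJ (1.71, adjusted p = 0.0144), and did not pass for CAST/EiJ against C57BL/6J (0.35, adjusted p = 0.618).

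Across all members tested, 34 of 44 passed the test of any difference between strains, or 77.3%, against 68.2% of all 20035 genes tested. Of the 44, NZO/HiLtJ had 8 higher and 1 lower than C57BL/6J, where 11.9% of all genes were called higher and 11.5% lower. Without CAST/EiJ high-fat replicate 1, 16 members differed between NZO/HiLtJ and C57BL/6J. That library is of neither strain, and fits without 1 library tested 49 to 55 members. The share of all genes called in that fit is not given here. Without all 6 libraries high in Epcam, 16 members (11 higher and 5 lower) and 8409 of all genes were called. With all 24 libraries, CAST/EiJ had 4 higher and 13 lower than C57BL/6J, with backgrounds of 18.7% higher and 20.2% lower. In WSB/EiJ, 0 were higher and 20 lower than in C57BL/6J, or 45.5% lower, with backgrounds of 13.2% higher and 16.4% lower; of the 44, 0 were higher at an unadjusted p under 0.05 with edgeR and 0 by DESeq2, which called 22 lower. Between the other strains, NZO/HiLtJ had 16 higher and 6 lower than CAST/EiJ (backgrounds 25.1% and 26.1%) and 25 higher and 1 lower than WSB/EiJ (backgrounds 21.7% and 23.9%). CAST/EiJ had 13 higher and 2 lower than WSB/EiJ, beside 17.3% higher and 18.1% lower over all genes.

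The median log2 fold change of the tested members was 0.31 in NZO/HiLtJ, -1.6 in CAST/EiJ and -3.02 in WSB/EiJ, each against C57BL/6J. With members that had no count in a strain set at the bound that a floor of 3 counts per library allows, the medians were 0.3, -1.08 and -2.08. Over all genes tested the corresponding medians were -0.03, 0.02 and 0.03. A member passed the filter on low counts if it was high enough in at least 3 libraries, the size of 1 group, whichever groups they came from. These medians and the counts of calls above therefore describe the members that passed and not all 98. Some members, such as Ighv12-3 and Igkv4-91, passed only through their level in NZO/HiLtJ. The direction of their calls was largely set by that filter.

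Of the 4 IgG constant genes, Ighg1, Ighg2b and Ighg2c were lower on high-fat diet in CAST/EiJ. Ighg1 had 0.0943, 0.0979 and 0.172 normalised CPM in the 3 high-fat CAST/EiJ mice and 2.57, 3.80 and 6.49 in the 3 standard mice. Ighg2b had 0.0808, 1.45 and 0.302 in the high-fat mice and 14.98, 5.75 and 22.6 in the standard mice. Ighg2c had 0.0539, 0.352 and 0.151 in the high-fat mice and 6.11, 2.32 and 7.22 in the standard mice. For all 3 genes every high-fat library lay below every standard library; 10 of the 44 members did not overlap between these diets, beside 20% of all genes. The standard libraries of CAST/EiJ were also above every library of the other strains for Ighg1 and Ighg2b. The log2 fold changes of high-fat against standard diet were -5.14 ± 1.07 for Ighg1 (adjusted p = 0.0328), -4.82 ± 1.22 for Ighg2c (adjusted p = 0.042) and -4.57 ± 1.28 for Ighg2b (adjusted p = 0.0484). These were the 3 of 44 members that fell with the diet in CAST/EiJ, where 1.6% of all genes fell. No member rose, 0 of 44 against 3.27% of all genes, with 1 higher at an unadjusted p under 0.05 and 0 of the 5 that DESeq2 called higher. DESeq2 called 2872 of all genes in this comparison.

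The 3 calls lay close to the threshold. Without CAST/EiJ high-fat replicate 1, the library with little Adipoq, the log2 fold changes were -4.99 for Ighg1, -4.37 for Ighg2c and -4.05 for Ighg2b, with adjusted p of 0.096, 0.155 and 0.18. Over the 24 fits that each left out 1 library, Ighg2c missed the threshold in 17, Ighg2b in 21 and Ighg1 in 4. Those fits tested 49 to 55 members, since the filter on low counts asks for fewer libraries where a group is smaller. No member passed with high-fat replicate 1 left out, nor without CAST/EiJ standard replicate 2, CAST/EiJ standard replicate 3 or NZO/HiLtJ high-fat replicate 1, and 5 passed without CAST/EiJ high-fat replicate 2. The test of whether the diet difference varied between strains gave adjusted p of 0.0517 for Ighg1, 0.0579 for Ighg2c and 0.0913 for Ighg2b. Of the 44 members, 0 passed that interaction test, beside 3.08% of all genes, and 8 had an unadjusted p under 0.05. DESeq2 called 5 members for the interaction (Ighg1, Ighg2b, Ighg2c, Igkv12-89 and Iglv1), beside 2612 of all genes. In the other strains the log2 fold changes of Ighg1 with the diet were -1.34 in NZO/HiLtJ, 0.35 in WSB/EiJ and 1.16 in C57BL/6J, none past the threshold.

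Ighg2c and Ighg2b are near relatives, so reads from one could be counted under the other, and their start is shown to make the distance visible. The first 150 coding bases are from GENCODE M21 transcripts of GRCm38, chromosome 12, in the sense of the gene, with the 15 differing bases in capitals.
Ighg2c: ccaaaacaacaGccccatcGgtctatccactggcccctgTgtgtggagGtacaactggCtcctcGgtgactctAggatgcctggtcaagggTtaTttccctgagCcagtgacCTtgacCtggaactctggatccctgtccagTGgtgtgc
Ighg2b: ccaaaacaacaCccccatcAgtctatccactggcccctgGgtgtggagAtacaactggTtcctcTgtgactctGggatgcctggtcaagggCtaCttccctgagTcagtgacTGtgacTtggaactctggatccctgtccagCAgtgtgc
The whole coding sequences are 87.6% identical. Mouse strains carry either Ighg2c or its allelic counterpart Ighg2a, and which of these NZO/HiLtJ, CAST/EiJ and WSB/EiJ carry was not analysed here, so levels of Ighg2c between strains are uncertain. The difference between diets in CAST/EiJ compares mice with the same alleles.

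Other constant genes did not pass with the diet in CAST/EiJ. Ighm was at a log2 fold change of -0.08 ± 0.49 (adjusted p = 0.933), Igkc at -0.33 ± 0.85 (adjusted p = 0.822), Iglc2 at -0.06 ± 0.65 (adjusted p = 0.962) and Ighg3 at 0.57 ± 1.84 (adjusted p = 0.862). Ighe, with few counts, was at -2.82 ± 0.97 (adjusted p = 0.0919). Its high-fat libraries all lay below the standard ones, as with the 3 IgG genes. Of 11 B cell genes 0 passed in CAST/EiJ, with 1 lower at an unadjusted p under 0.05 by edgeR, and their summed level in CAST/EiJ was 1.09 to 2.11 normalised CPM in high-fat mice and 2.33 to 2.83 in standard mice. Of 10 plasma cell genes, Xbp1, a secretory factor that fat cells also express, fell by 0.53 on the log2 scale (adjusted p = 0.0452), and did not pass without high-fat replicate 1 (-0.46, adjusted p = 0.165). Tnfsf13b, which encodes the B cell survival factor BAFF, fell to 4.83 ± 2.5 normalised CPM in high-fat mice, against 12.7 ± 0.48 in standard mice (SD, n = 3 each; log2 fold change -1.39 ± 0.37, adjusted p = 0.0439), and without high-fat replicate 1 was at -1.09 (adjusted p = 0.175). The summed epithelial level was 37.6 to 904 in high-fat and 15.4 to 25.3 in standard CAST/EiJ mice, and of 8 epithelial genes 2 rose (Krt8 and Krt19), neither without high-fat replicate 1 (adjusted p = 0.322 and 0.208). Of 10 T and NK cell genes 0 passed and 3 were lower at an unadjusted p under 0.05 (edgeR), with sums of 3.87 to 5.11 in high-fat and 5.39 to 9.11 in standard mice. Of 3 liver genes 1 fell (Alb), with sums of 6.56 to 21.2 in high-fat and 45.1 to 587 in standard mice, and of 4 skeletal muscle genes 1 fell (Ttn), with sums of 4.1 to 59.8 in high-fat and 2.91 to 1720 in standard mice; neither passed without high-fat replicate 1 (adjusted p = 0.122 and 0.111). Of 4 smooth muscle genes 0 passed and 4 were higher at an unadjusted p under 0.05 (edgeR), with sums of 121 to 7030 in high-fat and 94.2 to 403 in standard mice. Over all genes, 3.27% rose and 1.6% fell with the diet in CAST/EiJ. The part of these listed genes in the IgG difference was not tested.

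Ighg3, the IgG3 heavy chain, was high in 2 mice. It had 0.121, 0.333 and 138 normalised CPM in the high-fat CAST/EiJ mice and 92.1, 0.843 and 0.0974 in the standard CAST/EiJ mice. In the 18 libraries of the other strains it did not exceed 1.28. The kappa segment Igkv8-16 followed the same 2 mice, with 0, 0.157 and 38.9 in the high-fat and 30.6, 0.364 and 0.0162 in the standard CAST/EiJ mice, and at most 0.712 elsewhere. One of these mice was on each diet. In high-fat replicate 3 and standard replicate 1, Ighg3 was 90.9% and 75.4% of the heavy constant counts, and Igkv8-16 was 97.7% of 1848 and 90.3% of 1907 kappa V counts. The level of Ighg3 over that of Igkv8-16 was 3.54 and 3.01 in these 2 libraries. Counts of all kappa V segments came to 1.08 and 0.791 per count of Igkc in these 2 libraries.

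Both genes are shown beside a relative, since a pile of reads on 1 gene is read differently where a near copy exists. For Ighg3 this is Ighg1, which need not be the nearest IgG gene to it. The first pair gives the first 150 coding bases on chromosome 12 and the second the last 150 on chromosome 6, from GENCODE M21 transcripts of GRCm38, with differing bases in capitals.
Ighg3: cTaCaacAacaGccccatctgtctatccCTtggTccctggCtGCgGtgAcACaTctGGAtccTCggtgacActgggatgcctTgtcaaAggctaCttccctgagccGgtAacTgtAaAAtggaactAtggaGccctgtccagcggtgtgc
Ighg1: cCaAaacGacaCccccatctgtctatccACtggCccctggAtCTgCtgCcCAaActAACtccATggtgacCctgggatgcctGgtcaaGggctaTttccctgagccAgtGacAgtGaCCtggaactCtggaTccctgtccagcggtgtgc
Igkv8-16: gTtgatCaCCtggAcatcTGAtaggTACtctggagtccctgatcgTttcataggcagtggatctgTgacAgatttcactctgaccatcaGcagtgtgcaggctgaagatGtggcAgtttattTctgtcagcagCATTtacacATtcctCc
Igkv8-34: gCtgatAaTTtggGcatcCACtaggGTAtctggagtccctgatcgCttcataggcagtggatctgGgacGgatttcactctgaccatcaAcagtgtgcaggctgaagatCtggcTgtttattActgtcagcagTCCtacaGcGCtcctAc
Ighg3 and Ighg1 differ at 32 of these bases and are 76.5% identical over their whole coding sequence. Igkv8-16 and Igkv8-34, the annotated segment nearest to it, differ at 25 and are 81.1% identical. Neither gene has a near-identical copy among the sequences compared.

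These 2 libraries carried the strain comparisons of both genes. Against C57BL/6J the log2 fold change in CAST/EiJ was 6.87 ± 1.71 for Ighg3 (adjusted p = 0.00369) and 5.41 ± 1.72 for Igkv8-16 (adjusted p = 0.0201). Without high-fat replicate 3 they were 3.03 (adjusted p = 0.0657) and 1.69 (adjusted p = 0.388), and Igkv8-16 was also lost without standard replicate 1 (2.54, adjusted p = 0.197). Without both libraries they were 0.01 (adjusted p = 1) and -1.19 (adjusted p = 0.474), and Igkc in CAST/EiJ against WSB/EiJ was 0.84 (adjusted p = 0.253). The means of CAST/EiJ for these genes therefore describe 2 animals.

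Ighe, the IgE heavy chain gene, was rare everywhere and had most of its counts in NZO/HiLtJ. It had 74 counts over the 6 NZO/HiLtJ libraries, 18 in CAST/EiJ, 0 in WSB/EiJ and 1 in C57BL/6J. NZO/HiLtJ levels were 0.109, 0.0403 and 0.0979 normalised CPM in high-fat and 0.256, 0.299 and 0.157 in standard mice, each of them above the single C57BL/6J library with a count, at 0.0183. The difference passed (adjusted p = 0.000433), and the ratio of counts per library size was 68.1, with an exact 95% interval of 11.9 to 2730 that covers counting error only. Against WSB/EiJ it was at least 3.62-fold higher, taking 3 counts per library as the floor (adjusted p = 0.000102). Ighe passed the filter on low counts only through its level in standard NZO/HiLtJ mice. The direction of both calls was thus largely set by that filter. High-fat and standard NZO/HiLtJ libraries did not overlap, at a log2 fold change of -1.51 ± 0.71 (adjusted p = 0.338), but 46.5% of all genes did not overlap between these groups, against 9 of the 44 members.

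Outside CAST/EiJ the diet gave 1 call among the members, in NZO/HiLtJ, and 5 there once the 6 libraries high in Epcam were left out (Ighv14-4, Igkv12-89, Igkv6-20, Igkv6-29 and Igkv6-32, all higher). That fit called 4112 of all genes, and none of the libraries left out was of NZO/HiLtJ. The fit with all 24 libraries called 591 genes higher and 388 lower in NZO/HiLtJ. NZO/HiLtJ had 1 member higher on high-fat diet, Ighv14-4, with backgrounds of 2.95% higher and 1.94% lower, and 0 lower (0 at an unadjusted p under 0.05, 0 by DESeq2). WSB/EiJ had 0 higher and 0 lower, where 12.9% of all genes rose and 8.61% fell. In that strain 4 were higher and 0 lower at an unadjusted p under 0.05, and DESeq2 called 2 (Ighv6-3 and Ighv6-6), beside 5422 of all genes. C57BL/6J had 0 higher and 0 lower, beside 0.00998% and 0% of all genes, with 5 higher and 0 lower at an unadjusted p under 0.05 and 0 by DESeq2. Averaged over strains, 0 rose and 0 fell, where 17.1% of all genes rose and 11.8% fell. In this average 1 was higher and 1 lower at an unadjusted p under 0.05, and DESeq2 called 1, Ighg1, beside 7017 of all genes. Without CAST/EiJ high-fat replicate 1, 2 members passed in NZO/HiLtJ and 4 in WSB/EiJ; leaving out single other libraries gave 0 to 2 in NZO/HiLtJ and 0 to 2 in WSB/EiJ, and 0 or 1 averaged over strains. The median log2 fold change with the diet was 0.12 in NZO/HiLtJ, -1.08 in CAST/EiJ, 1.5 in WSB/EiJ and 0.48 in C57BL/6J. With members at 0 in a group set at their bounds these medians were 0.03, -0.65, 0.07 and 0.41, and over all genes they were -0.01, 0.05, 0.07 and 0.02.

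The NZO/HiLtJ member that rose, Ighv14-4, had 0.724, 1.38 and 6.66 normalised CPM in high-fat mice and 0.0404, 0.0359 and 0.21 in standard mice. The groups did not overlap, as with 46.5% of all genes, at a log2 fold change of 4.92 ± 1.12 (adjusted p = 0.0212), with the highest level in high-fat replicate 3. The call was lost without that library (3.45, adjusted p = 0.11), without high-fat replicate 2 (adjusted p = 0.0509) and without standard replicate 1 or 2 (adjusted p = 0.0909 and 0.126). Ighv14-1, an annotated segment, is 97.4% identical to it, so its counts are uncertain. The kappa segment Igkv6-20 had 1.53, 3.88 and 24.5 in high-fat and 0.229, 0.0239 and 0.995 in standard NZO/HiLtJ mice, also without overlap and highest in high-fat replicate 3, at 4.58 ± 1.44 (adjusted p = 0.0901); DESeq2 called it.

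Igkv6-29 had 0.451, 0.912 and 5.41 normalised CPM in high-fat and 0.0944, 0.012 and 0.275 in standard NZO/HiLtJ mice, the same order of libraries as Igkv6-20, and the 2 segments are nearly the same in sequence. The last 150 coding bases on chromosome 6, from GENCODE M21 transcripts of GRCm38, hold all of their differing bases, in capitals.
Igkv6-20: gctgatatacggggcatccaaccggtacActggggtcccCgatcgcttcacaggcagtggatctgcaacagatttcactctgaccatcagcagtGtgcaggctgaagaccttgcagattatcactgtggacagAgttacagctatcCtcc
Igkv6-29: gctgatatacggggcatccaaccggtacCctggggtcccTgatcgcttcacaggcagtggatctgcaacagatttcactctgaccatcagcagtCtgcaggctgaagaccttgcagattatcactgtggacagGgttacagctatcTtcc
They differ at 5 bases and are 98.6% identical over 347 coding bases. Counts of Igkv6-20 over Igkv6-29 were 3.39, 4.25 and 4.52 in the high-fat NZO/HiLtJ libraries, 3.62 in standard replicate 3 and 2.55 in C57BL/6J standard replicate 1, the libraries with at least 10 counts of Igkv6-29. Reads of this pair cannot be told apart with certainty, so their separate levels and shares are uncertain. Of 35 tested V segments with a coding sequence in the annotation, 14 had another annotated segment at 95% identity or more, and the median identity to the nearest was 91.6%.

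**Figure D3:**
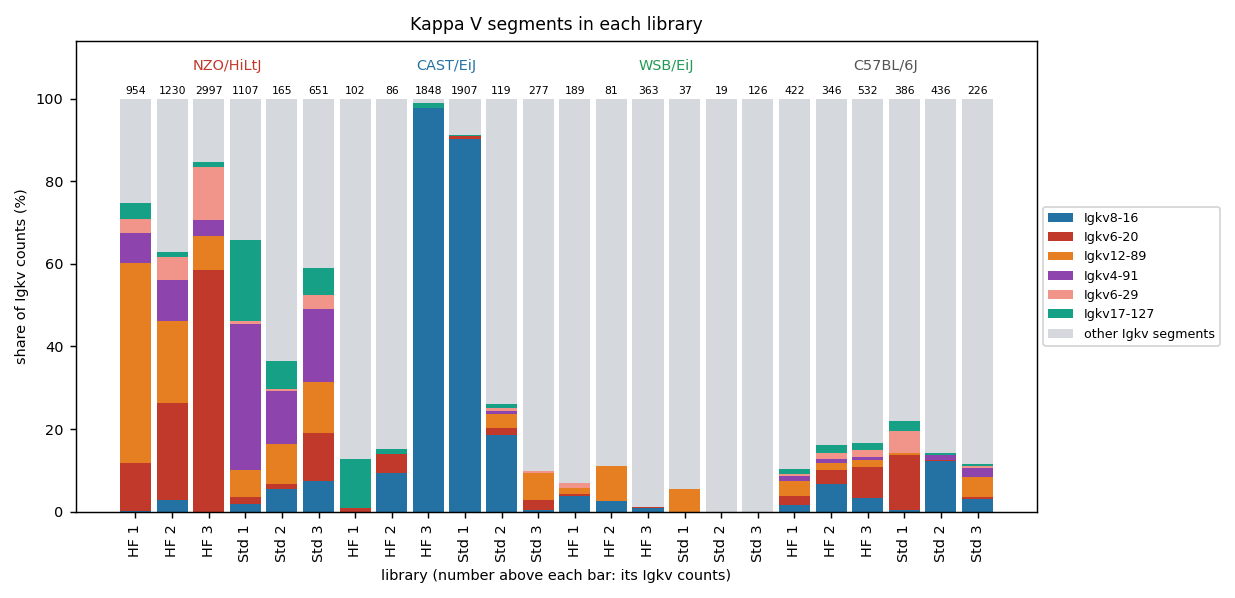
Share (%) of the kappa V counts of each library taken by the 6 Igkv segments with the highest mean level, with the number of kappa V counts above each bar. Igkv8-16 fills 97.7% and 90.3% of 2 CAST/EiJ libraries, while Igkv6-20, Igkv12-89 and Igkv4-91 each lead libraries of NZO/HiLtJ.

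The kappa V segments differed in mix from mouse to mouse within strains. In NZO/HiLtJ, Igkv12-89 led with 48.4% of the kappa V counts in high-fat replicate 1. Igkv6-20 took 23.5% in high-fat replicate 2 and 58.4% of 2997 in high-fat replicate 3, and Igkv4-91 took 35.2%, 12.7% and 17.7% in the 3 standard mice. C57BL/6J had another leading segment in each mouse. These were Igkv4-70, Igkv12-46 and Igkv5-39 on high-fat diet and Igkv2-137, Igkv4-57 and Igkv5-48 on standard diet. The mix can be put as an effective number of segments, the number of equally frequent ones with the same Shannon entropy. It was 5.28 in NZO/HiLtJ high-fat replicate 3, 1.16 and 1.82 in the CAST/EiJ libraries with high Igkv8-16 (high-fat replicate 3 and standard replicate 1), and up to 25.8 in C57BL/6J high-fat replicate 3. This measure counts Igkv6-20 and Igkv6-29 apart. Libraries with few counts limit it, and WSB/EiJ standard replicate 2 had 19 kappa V counts.

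Several V segments were seen mainly in NZO/HiLtJ. Igkv4-91 had 0.942, 1.65 and 1.59 normalised CPM in high-fat and 5.26, 0.251 and 1.51 in standard NZO/HiLtJ mice, and no other library exceeded 0.0703. It was higher than in C57BL/6J by 5.06 ± 0.76 on the log2 scale (adjusted p = 0.000475). It had 0 counts in WSB/EiJ, so it was at least 42.2-fold higher in NZO/HiLtJ there (adjusted p = 1.98e-05), and 2 counts in CAST/EiJ, a ratio of 321 with a 95% interval of 88.7 to 2660 (adjusted p = 2.22e-05). Without NZO/HiLtJ standard replicate 1, its highest library, the bound was 26.9-fold and the ratio 204. Igkv4-91 passed the filter on low counts only through its level in NZO/HiLtJ. The direction of these calls was thus largely set by that filter. The bound and the ratio describe a segment selected by its NZO/HiLtJ level. The nearest relative of Igkv4-91, Igkv4-79, is 87.2% identical.

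Ighv12-3 had 0.423, 1.13 and 0.825 normalised CPM in high-fat and 2.72, 0.144 and 1.02 in standard NZO/HiLtJ mice, and 0.0913 at most in C57BL/6J (log2 fold change 5.2 ± 0.81, adjusted p = 0.000597). In CAST/EiJ it had 0 counts, at least 19.9-fold less than in NZO/HiLtJ (adjusted p = 2.97e-05). Igkv12-89 had 6.31, 3.27 and 3.48 in high-fat and 1.01, 0.192 and 1.06 in standard NZO/HiLtJ mice, against 0.193 at most in C57BL/6J, where only the NZO/HiLtJ standard replicate 2 library overlapped. Its log2 fold change was 4.23 ± 0.79 against C57BL/6J (adjusted p = 0.000958), 6.85 ± 1.05 against CAST/EiJ (adjusted p = 4.66e-05) and 6.22 ± 0.92 against WSB/EiJ (adjusted p = 4.95e-05). These are fitted values, and the 3 CAST/EiJ high-fat libraries had no count; the means were 2.56 in NZO/HiLtJ and 0.0656 in CAST/EiJ. In standard groups alone it missed the threshold against C57BL/6J (3.61, adjusted p = 0.0556) and against CAST/EiJ (2.49, adjusted p = 0.0744). With the diet in NZO/HiLtJ it had a log2 fold change of 2.53 ± 0.99 (adjusted p = 0.196), the high-fat libraries all above the standard ones.

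**Figure D4:**
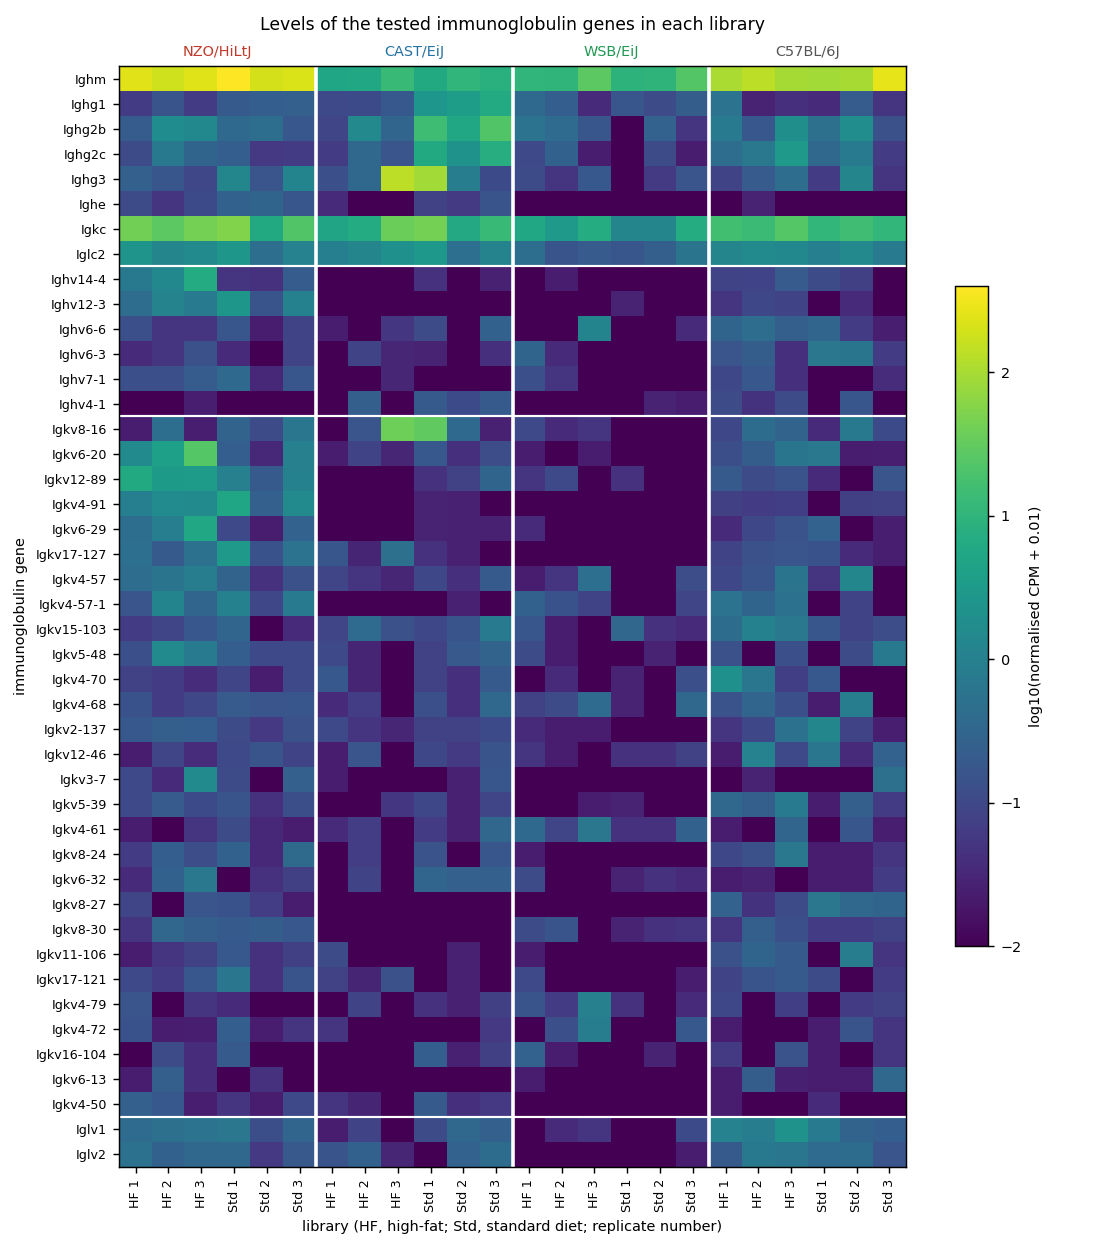
Level of each tested immunoglobulin gene (rows) in each library (columns), as log10 of normalised CPM plus 0.01, with columns by strain and diet. Igkv4-91 and Ighv12-3 are bright in NZO/HiLtJ, Igkv8-16 and Ighg3 in 2 CAST/EiJ libraries, and the V segments of WSB/EiJ are mostly dark.

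Segments that went the other way were few and rare. Ighv4-1 had 1 count in NZO/HiLtJ, 41 in CAST/EiJ and 29 in C57BL/6J. The count per library size in C57BL/6J was 31.5 times that in NZO/HiLtJ (95% interval 5.22 to 1290, adjusted p = 0.0415, lost in 14 of the 24 fits without a library), and in CAST/EiJ 53.1 times that in NZO/HiLtJ (9.01 to 2150, adjusted p = 0.00808, lost in 1 such fit). Between NZO/HiLtJ and WSB/EiJ, Igkv4-61 was lower in NZO/HiLtJ, at a log2 fold change of -2.7 ± 1.09 (adjusted p = 0.0497), a call lost in 11 of 24 such fits. Igkv4-57-1 had most of its counts in NZO/HiLtJ (261), with 1 in CAST/EiJ and 41 in WSB/EiJ; its call in CAST/EiJ against WSB/EiJ (adjusted p = 0.0304) was lost in 4 of 24 such fits and in standard groups alone (-2.1, adjusted p = 0.479).

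The lambda segments Iglv1 and Iglv2 had their highest mean in C57BL/6J. Iglv1 had 0 to 0.0962 normalised CPM in WSB/EiJ and 0.225 to 2.25 in C57BL/6J, without overlap, a log2 fold change of -4.72 ± 0.77 (adjusted p = 0.000179). In CAST/EiJ, at 0 to 0.347, its log2 fold change was -3.18 ± 0.72 (adjusted p = 0.00174), with 2 standard libraries inside the C57BL/6J range; in standard mice alone the log2 fold change was -0.9 (adjusted p = 0.495). Iglv2 had 1 count in WSB/EiJ and 166 in C57BL/6J, a ratio of 164 with a 95% interval of 29.1 to 6530 (adjusted p = 0.000187), and 66 counts in CAST/EiJ (adjusted p = 0.000768 for CAST/EiJ against WSB/EiJ). Iglv1 and Iglv2 are 96.9% identical, so the split between them is uncertain. Igkv5-39, a kappa segment, was also lower in WSB/EiJ, with 2 counts there and 112 in C57BL/6J (adjusted p = 0.000394). Iglv3, the third lambda segment, was too rare to test and stayed at or under 0.49.

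Some segments had no count in any of the 6 libraries of a strain. Of the 89 V segments, these were 18 in NZO/HiLtJ, 32 in CAST/EiJ, 34 in WSB/EiJ and 23 in C57BL/6J, and 29 were seen in all 6 libraries in NZO/HiLtJ, 4 in CAST/EiJ, 2 in WSB/EiJ and 17 in C57BL/6J. Between 16 and 61 V segments had a count in a library. Of those at 0, 4 in CAST/EiJ, 5 in WSB/EiJ and 0 in the other strains were common enough elsewhere to be tested. With at least 10 counts in all 6 libraries of another strain, and 0 in the 6 of its own, there were 1 in CAST/EiJ (Ighv12-3) and 2 in WSB/EiJ (Igkv4-91 and Igkv17-127), each abundant in NZO/HiLtJ. Igkv17-127 was at least 18.2-fold higher in NZO/HiLtJ than in WSB/EiJ, or 8.56-fold without NZO/HiLtJ standard replicate 1, and Igkv17-121 is 97.5% identical to it. Igkv8-27 had 0 counts in CAST/EiJ and in WSB/EiJ, and was at least 5.48-fold and 6.51-fold lower there than in C57BL/6J (adjusted p = 0.00139 and 0.00182). Igkv8-30 had 0 counts in CAST/EiJ and was at least 1.83-fold lower than in C57BL/6J (adjusted p = 0.00134), where it ran from 0.0387 to 0.237 normalised CPM. A count of 0 leaves a level of up to 0.0526 normalised CPM in CAST/EiJ and 0.0442 in WSB/EiJ, means over libraries of 3 counts each. All V segments together had 28 to 457 counts in a WSB/EiJ library and 124 to 1950 in a CAST/EiJ library, against 208 to 3674 in NZO/HiLtJ. Absence of the segment from the genome, reads that did not match the reference, and a segment too little used in these mice to be counted cannot be told apart here.

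B cell genes followed the strain order of Ighm in part. The list was Ms4a1, Cd79a, Cd79b, Cd22, Pax5, Blk, Fcrla, Cr2, Fcer2a, Cxcr5 and Tnfrsf13c, all 11 tested and none of them at 0 throughout a strain. Summed, they reached 13.8 to 41.8 normalised CPM in NZO/HiLtJ, 1.09 to 2.83 in CAST/EiJ, 3.06 to 4.49 in WSB/EiJ and 5.17 to 10.6 in C57BL/6J. Against C57BL/6J, 4 were higher in NZO/HiLtJ, 10 lower in CAST/EiJ and 4 lower in WSB/EiJ, and none went the other way. Cd79b, a part of the B cell receptor, was lower in CAST/EiJ, at a log2 fold change of -2.73 ± 0.49 (adjusted p = 0.000199), and Ms4a1, which encodes CD20, was higher in NZO/HiLtJ by 2.14 ± 0.48 (adjusted p = 0.00323). Ighm per summed B cell level still ran from 2.34 to 6.22 in CAST/EiJ and from 2.21 to 8.66 in WSB/EiJ, below the 9.56 to 14.9 of NZO/HiLtJ and the 8.99 to 30.2 of C57BL/6J, without overlap. T and NK cell genes moved as well, with 5 of 10 higher in NZO/HiLtJ and 8 lower in CAST/EiJ than in C57BL/6J, and 0 in WSB/EiJ (2 higher and 1 lower there at an unadjusted p under 0.05, edgeR). Beside both lists, the shares of all genes higher and lower than in C57BL/6J were 11.9% and 11.5% in NZO/HiLtJ. They were 18.7% and 20.2% in CAST/EiJ and 13.2% and 16.4% in WSB/EiJ. The part of B cell number in the immunoglobulin levels was not tested.

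Plasma cell genes were mixed in direction. Of 10 tested, 3 were higher and 1 lower in CAST/EiJ than in C57BL/6J, and 0 higher and 2 lower in WSB/EiJ (1 higher and 4 lower at an unadjusted p under 0.05, edgeR), beside 18.7% and 20.2% of all genes in CAST/EiJ and 13.2% and 16.4% in WSB/EiJ. Irf4, a factor of plasma cells and of other immune and fat cells, averaged 83.2 ± 66.8 normalised CPM in CAST/EiJ and 14.8 ± 4.7 in C57BL/6J (SD, n = 6 each; log2 fold change 2.49 ± 0.59, adjusted p = 0.00258), and Xbp1 was higher by 0.49 ± 0.10 (adjusted p = 0.000747). Tnfrsf17, which encodes BCMA, the receptor for plasma cell survival factors, was lower in CAST/EiJ, at -2.58 ± 0.42 (adjusted p = 8.74e-05). In NZO/HiLtJ against WSB/EiJ 4 were higher, among them Mzb1, a chaperone of antibody assembly (3.07 ± 0.78, adjusted p = 0.00398), and Pou2af1, a B lineage coactivator (3.01 ± 0.53, adjusted p = 0.00017), and 3 were lower, Xbp1, Fkbp11 and Derl3, which serve secretion in many cell types. There 21.7% of all genes were higher and 23.9% lower.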

How the data were processed

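Poly(A) RNA was sequenced from inguinal fat pads of 24 mice. The authors deposited gene-level expected counts (estimated counts), which per the submitters' processing notes involved CASAVA 1.8.0, Bowtie 0.12.8 and RSEM 1.2.1, and name NCBIM37 and mm9 as builds; the role of each tool, strand use and the treatment of reads that fit several genes are not given in the sources used here. The values are whole numbers. A second deposited table, of upper-quartile normalised counts, was not used. Because V segments and IgG genes have near copies, RSEM's division of shared reads can move counts between members. No coordinates are printed, since the sequences come from another build.

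Symbols matched 32919 of the 37991 identifiers. Counts were analysed with edgeR 4.0.16 in R 4.3.3: filterByExpr by group kept 20035 genes and removed 17956, TMM scaling was used, and all 24 libraries entered 1 fit with a coefficient for each group (16 residual degrees of freedom, biological coefficient of variation 40.06%). P-values are from the 2-sided quasi-likelihood F test and were Benjamini-Hochberg adjusted over all genes kept, with 0.05 as threshold. Strain comparisons weight both diets equally. Normalised CPM use the TMM-scaled total, and errors are SE for log2 fold changes and SD for levels. Each library comes from 1 mouse, per the labels' protocols, and for pairs of libraries in 1 group the chi-square over its degrees of freedom lay between 22.1 and 1490. The pipeline was tested on simulated data. Intervals and floors cover counting error only.

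Named genes were all constant genes; up to 3 V segments per comparison and direction with the smallest adjusted p; up to 6 segments of each class by level; V segments with 0 counts in 1 strain and at least 10 in every library of another; and up to 4 genes per list and comparison. A few others were named after their values were seen. The members and the gene lists (B cells, plasma cells, T and NK cells, lymph node, epithelium, liver, skeletal and smooth muscle, immunoglobulin receptors, recombination and switching, B cell survival) were chosen with earlier results of these data known; 1 gene of the B cell list is not reported here and enters no value of that list. Alternatives were DESeq2 1.42.0, other scalings, no filter, single diets and left-out libraries.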

Additional observations from a re-analysis of the deposited data

How the results depend on the processing

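All 55 named gene results kept their call under median-of-ratios scaling, upper-quartile scaling and totals without the immunoglobulin genes, and 4 lost it with no filter on low counts. More were lost or turned with fewer libraries: 20 of 55 in at least 1 fit that left out a library, 15 of 51 in standard groups alone, 16 of 51 in high-fat groups alone, 14 of 55 without both CAST/EiJ libraries with high Ighg3, 3 of 28 without libraries high in Epcam, and 1 of 49 with DESeq2. Named list genes and fold bounds without single libraries were added after seeing the data. The number of members that passed for the diet moved as follows. In NZO/HiLtJ it was 5 without libraries at or above 5 CPM of Epcam and 2 with DESeq2; in CAST/EiJ 1 with no filter, 1 without the Epcam libraries and 5 with DESeq2; in WSB/EiJ 2 with DESeq2; averaged over strains 1 without the Epcam libraries and 1 with DESeq2. Without both CAST/EiJ libraries with high Ighg3, an alternative chosen after seeing the data, it was 1 in CAST/EiJ and 1 in WSB/EiJ. The interaction gave 1 with median-of-ratios scaling, 1 without the Epcam libraries and 5 with DESeq2. For the diet, all genes called numbered 4112 without the Epcam libraries and 1610 with DESeq2 in NZO/HiLtJ, and 2872 with DESeq2 in CAST/EiJ. With DESeq2 they numbered 5422 in WSB/EiJ, 7017 averaged over strains and 2612 for the interaction. In CAST/EiJ they numbered 239 with no filter and 505 without the Epcam libraries. Without the Epcam libraries they also numbered 2434 averaged over strains and 1367 for the interaction, which had 627 with median-of-ratios scaling. Without both high-Ighg3 libraries they numbered 2859 in CAST/EiJ and 4870 in WSB/EiJ. Between strains, standard groups alone gave 5 for NZO/HiLtJ against C57BL/6J, 9 for CAST/EiJ against C57BL/6J, 9 for WSB/EiJ against C57BL/6J and 12 for NZO/HiLtJ against CAST/EiJ. In that order, these comparisons called 1675, 5602, 4415 and 7042 of all genes. High-fat groups alone gave 10 for CAST/EiJ and 11 for WSB/EiJ against C57BL/6J, and 7 for CAST/EiJ against WSB/EiJ. There 5198, 3589 and 5347 of all genes were called, in that order. NZO/HiLtJ against C57BL/6J gave 16 without the Epcam libraries, 11 higher and 5 lower, where 8409 of all genes were called. Without both high-Ighg3 libraries, CAST/EiJ gave 11 against C57BL/6J and 9 against WSB/EiJ, where 7266 and 6330 of all genes were called. The log2 ratio of summed immunoglobulin CPM with the diet was -0.03 in NZO/HiLtJ and -0.13 in C57BL/6J, and 1.14 and 0.58 over all members but Ighm, an alternative also chosen after seeing the data.

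Leaving out 1 library at a time, which lets 49 to 55 members pass the filter where 44 pass with all 24, the diet gave 0 to 2 members in NZO/HiLtJ, 0 to 5 in CAST/EiJ, 0 to 4 in WSB/EiJ, 0 to 0 in C57BL/6J and 0 to 1 averaged over strains, and the interaction 0 to 2. Strain comparisons gave 6 to 16 (NZO/HiLtJ against C57BL/6J), 13 to 20 (CAST/EiJ against C57BL/6J), 18 to 26 (WSB/EiJ against C57BL/6J), 20 to 25 (NZO/HiLtJ against CAST/EiJ), 26 to 31 (NZO/HiLtJ against WSB/EiJ), 11 to 17 (CAST/EiJ against WSB/EiJ) and 36 to 41 (any strain). How many of all genes these fits called is not given here, so the ranges have no background. The summed log2 ratio ran from -0.26 to 0.31 in NZO/HiLtJ, -2.29 to -0.21 in CAST/EiJ, 0.11 to 0.98 in WSB/EiJ, -0.37 to 0.28 in C57BL/6J and -0.49 to 0.03 averaged.

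The sign turned in 7 cases. In high-fat groups alone the log2 fold change was -0.81 for Ighg1 in CAST/EiJ against C57BL/6J, -0.77 for Ighg1 in CAST/EiJ against WSB/EiJ, and 1.04 for Ighg2c and 0.89 for Ighg2b in NZO/HiLtJ against CAST/EiJ. Without both high-Ighg3 libraries it was -1.19 for Igkv8-16 in CAST/EiJ against C57BL/6J, and 0.22 for Ighg3 and 0.98 for Igkv8-16 in NZO/HiLtJ against CAST/EiJ. Beyond the construction of these alternatives, with fewer libraries or another set of genes tested, the cause was not tested. No paired analysis was possible because the labels give no replicate numbers. Low counts limit most V segments.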

Other observations

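Genes that bind or carry antibody differed with the diet in NZO/HiLtJ. Of 10 such genes, 3 were higher and 1 lower on high-fat diet by edgeR's quasi-likelihood test with Benjamini-Hochberg adjustment. Beside them, 2.95% of all genes were higher and 1.94% lower. Fcgr3, an activating IgG receptor, averaged 210 ± 42.2 normalised CPM in high-fat and 81 ± 15.8 in standard NZO/HiLtJ mice (SD, n = 3 each; log2 fold change 1.38 ± 0.32, adjusted p = 0.0187). Fcer1g, the signalling chain that such receptors share, averaged 40.4 ± 6.2 in high-fat and 18 ± 2.68 in standard mice (1.16 ± 0.19, adjusted p = 0.00173). Fcgr2b, the inhibitory IgG receptor, averaged 16.6 ± 1.29 in high-fat and 35.4 ± 4.84 in standard mice (-1.09 ± 0.25, adjusted p = 0.0156). Against C57BL/6J, 5 of the 10 were higher and 1 lower in NZO/HiLtJ, 0 higher and 5 lower in CAST/EiJ, and 0 higher and 7 lower in WSB/EiJ. Over all genes, the shares higher and lower were 11.9% and 11.5% in NZO/HiLtJ, 18.7% and 20.2% in CAST/EiJ, and 13.2% and 16.4% in WSB/EiJ.

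Of 9 genes of recombination and class switching, 4 were common enough to test. Of these, 2 were higher and 1 lower in CAST/EiJ than in C57BL/6J, beside 18.7% and 20.2% of all genes. Ung, which encodes the uracil glycosylase that acts in class switching and in DNA repair of all cells, averaged 14.4 ± 4.19 normalised CPM in CAST/EiJ and 4.89 ± 1.12 in C57BL/6J (SD, n = 6 each; log2 fold change 1.52 ± 0.18, adjusted p = 1.57e-06). Of 8 B cell survival genes 6 were tested, and against C57BL/6J 2 were higher and 1 lower in NZO/HiLtJ, 1 higher and 4 lower in CAST/EiJ, and 0 higher and 3 lower in WSB/EiJ. The shares of all genes higher and lower were 11.9% and 11.5% in NZO/HiLtJ and 13.2% and 16.4% in WSB/EiJ. Tnfrsf13b, which encodes the BAFF and APRIL receptor TACI, was higher in NZO/HiLtJ than in C57BL/6J by 1.01 ± 0.21 (adjusted p = 0.00196) and lower in CAST/EiJ, at -1.53 ± 0.22 (adjusted p = 1.81e-05).

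The inguinal fat pad holds a lymph node. Of 4 lymph node genes tested against C57BL/6J, 1 was higher and 1 lower in NZO/HiLtJ, 1 higher and 1 lower in CAST/EiJ, and 1 higher and 2 lower in WSB/EiJ. The lymph node chemokine gene Ccl19 averaged 2.86 ± 0.633 normalised CPM in NZO/HiLtJ, 0.385 ± 0.0975 in CAST/EiJ, 0.514 ± 0.202 in WSB/EiJ and 1.42 ± 0.305 in C57BL/6J (SD, n = 6 each). The summed level of the 5 lymph node genes in the count table had another order, with CAST/EiJ highest by median. It ran from 2.78 to 7.39 in NZO/HiLtJ (median 4.34) and from 2.57 to 11.1 in CAST/EiJ (8.91). In WSB/EiJ it was 1.85 to 2.82 (2.22) and in C57BL/6J 4.05 to 6.24 (5.05). Of 8 epithelial genes tested, 1 was higher and 3 lower in NZO/HiLtJ than in C57BL/6J, and 1 was higher in CAST/EiJ and in WSB/EiJ. Both lists stand beside shares of all genes higher and lower of 11.9% and 11.5% in NZO/HiLtJ. These shares were 18.7% and 20.2% in CAST/EiJ and 13.2% and 16.4% in WSB/EiJ. The part of lymph node or epithelium in the immunoglobulin levels was not tested.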
